A study of Mus musculus with 45 samples.

Results

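The Sox2 locus was followed here through every open chromatin region (OCR) whose summit lies within 130 kb of the Sox2 start, which gave 52 of the 184964 peaks in the deposited peak list. The start used is the 5′ end of Sox2 in RefSeq on the mouse build mm10 (GRCm38), at position 34649995 of chromosome 3 on the plus strand, and the gene ends at 34652461. Peaks are named by the distance of their summit from that start in kb, with a plus sign downstream, and the peak on the start itself is called the promoter peak. By distance, 10 peaks lay upstream, 6 lay within 10 kb of the start (promoter-near), 26 lay between 10 and 95 kb downstream (intervening), 8 lay 95 to 120 kb downstream (control region) and 2 lay farther downstream.

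SOX2 is a transcription factor of the HMG box family that keeps embryonic stem cells pluripotent, in large part by binding DNA together with OCT4 at composite sites where a SOX element sits beside an octamer element. Sox2 is a single-exon gene that lies inside an intron of the long noncoding gene Sox2ot, and it is itself a target of the pluripotency network. In mouse embryonic stem cells its transcription is known to depend on a cluster of distal enhancers, the Sox2 control region, while a small enhancer just downstream of the gene, known as Sox regulatory region 2, was among the first known targets of the SOX2 and OCT4 pair. ATACseq measures how often the transposase Tn5 inserts into DNA, so a fall in counts at a peak is a fall in accessibility and not by itself a change in transcription.

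Accessibility was measured in mouse embryonic stem cells in which both copies of 1 factor carry the FKBP degradation tag, so that dTAG-13, given at 500 nM, sends that factor to the proteasome. The SOX2-FKBP and NANOG-FKBP lines were made in E14 cells with the tag, a P2A peptide and a fluorescent protein at the C-terminus of the endogenous gene, and the OCT4-FKBP line is a V6.5 line from another laboratory. The libraries used here are untreated (NT, given DMSO) SOX2-FKBP cells and the same cells at 0.5, 1, 2, 6 and 24 h of dTAG-13 (2 libraries each), OCT4-FKBP cells at NT, 2, 6 and 24 h (2 each) and NANOG-FKBP cells at NT (2), 2, 6 and 24 h (3 each). All were grown in serum-free medium with LIF and inhibitors of MEK and GSK3. The tag of SOX2-FKBP cells lies inside the locus described here, at the end of the Sox2 coding sequence between the promoter peak and the peak at +4.0 kb, and is not part of the reference sequence. The study used duplicates and an independent clone for some SOX2-FKBP experiments, and the labels do not say which replicate is which, so the p-values below measure the spread between these libraries, which may be technical. The counts do not check that the tagged protein was gone.

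Of the 31 libraries, total counts over peaks ran from 1817191 to 17575631. The NANOG-FKBP line held the shallowest library (a 2 h library) and the highest mitochondrial share, 17.56% of counts, against at most 6.65% in OCT4-FKBP and 3.38% in SOX2-FKBP cells. Of 6 promoters of embryonic stem cell genes looked up, 5 had a tested peak within 500 bp of the start. Of these, Nanog was lost at 24 h in SOX2-FKBP cells (log2 change -0.75) and in OCT4-FKBP cells (-1.21), Tfcp2l1 (0.88) and Klf4 (0.57) rose in OCT4-FKBP cells, and none passed the test in NANOG-FKBP cells. Of the 7 endoderm, trophectoderm and mesoderm genes, 5 had such a peak, of which Gata6 rose in OCT4-FKBP cells (0.69) and Hand1 in SOX2-FKBP cells (0.87). Their part in the results at Sox2 was not tested.

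The sequences below are those of the 5 promoter-near and control region peaks with the lowest log2 change at 2 h of SOX2 or OCT4 depletion, shown as 300 bases around the summit, plus strand, mm10, from the GRCm38 reference. Capitals mark matches to a SOX element (CATTGT or CTTTGT, on either strand) and to the composite (TGTNATGCA), whose first letters overlap the SOX element.
+4.0 kb, chr3:34653888-34654187: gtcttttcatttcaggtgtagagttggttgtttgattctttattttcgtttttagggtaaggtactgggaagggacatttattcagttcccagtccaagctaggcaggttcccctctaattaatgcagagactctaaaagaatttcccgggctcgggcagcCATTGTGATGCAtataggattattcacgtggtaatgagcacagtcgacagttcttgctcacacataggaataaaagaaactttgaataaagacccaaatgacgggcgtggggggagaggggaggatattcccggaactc
+117.2 kb, chr3:34767066-34767365: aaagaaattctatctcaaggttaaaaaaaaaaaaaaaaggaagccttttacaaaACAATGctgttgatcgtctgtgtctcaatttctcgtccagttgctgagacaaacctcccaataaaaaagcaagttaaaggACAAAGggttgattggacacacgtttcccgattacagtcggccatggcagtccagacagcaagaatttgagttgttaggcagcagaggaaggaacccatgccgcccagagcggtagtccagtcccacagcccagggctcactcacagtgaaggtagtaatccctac
+106.9 kb, chr3:34756725-34757024: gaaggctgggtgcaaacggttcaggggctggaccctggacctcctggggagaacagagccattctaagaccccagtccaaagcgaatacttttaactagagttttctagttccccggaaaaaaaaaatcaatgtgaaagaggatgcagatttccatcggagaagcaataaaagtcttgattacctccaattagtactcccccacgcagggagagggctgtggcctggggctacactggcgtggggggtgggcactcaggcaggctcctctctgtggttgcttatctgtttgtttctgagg
+108.0 kb, chr3:34757819-34758118: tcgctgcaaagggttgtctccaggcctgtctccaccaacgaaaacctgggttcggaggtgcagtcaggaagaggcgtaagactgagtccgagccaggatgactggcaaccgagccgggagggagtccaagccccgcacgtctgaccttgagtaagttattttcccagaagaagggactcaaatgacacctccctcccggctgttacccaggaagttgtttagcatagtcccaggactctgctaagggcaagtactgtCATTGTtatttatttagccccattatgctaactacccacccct
+105.5 kb, chr3:34755340-34755639: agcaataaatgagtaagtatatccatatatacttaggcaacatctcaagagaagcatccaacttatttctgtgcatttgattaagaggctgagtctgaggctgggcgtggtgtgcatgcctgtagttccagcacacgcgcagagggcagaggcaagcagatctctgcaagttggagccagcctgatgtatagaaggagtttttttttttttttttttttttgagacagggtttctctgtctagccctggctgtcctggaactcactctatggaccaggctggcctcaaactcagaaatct
The peak at +4.0 kb was the only 1 of the 52 with a composite match in its window (TGTGATGCA, which overlaps a SOX match 11 bases from the summit). The composite was found in 1.06% of the windows of 171032 peaks that passed the count filter of either fit and had a window read. The window at +117.2 kb held 2 SOX matches on the minus strand, at 16 and 96 bases upstream of its summit. At +108.0 kb there was 1 SOX match, 107 bases from the summit, and the letters of an ESRRB element (CAAGGTCA) on the minus strand. Neither +106.9 kb nor +105.5 kb held a SOX match in this window, although each held a KLF element (GGGNGTGG). Over its whole width +106.9 kb held 3 SOX matches and +105.5 kb held 0.

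Across all 52 peaks, 19 windows (36.5%) held a SOX match, against 34.8% of all tested peaks. The full octamer (ATGCAAAT) was in no window, against 2.68% of all. Over the whole peak, +18.6 and +63.4 kb each held 1 octamer outside the window. Whole peaks differ in width, and no share over all peaks was taken for them. The KLF element was in 10 (19.2%, against 17.4% of all), the ESRRB element in 2 (3.85%, against 5.35%), the STAT element (TTCCNGGAA) in 3 (5.77%, against 1.31%) and the core of the CTCF element (AGNNGGCGC) in 7 (13.5%, against 5.98%). These are descriptions of the letters in these windows, and no match does not say that a factor does not bind. By annotation, 24 of the 52 summits lay in Sox2ot, 27 lay in an intron, 4 in an exon and 21 between genes. All 8 control region peaks lay between annotated genes. The promoter peak spans chr3:34648674-34651295, and +4.0 kb (chr3:34653366-34654148) and +18.6 kb (chr3:34668090-34668785) lie in introns of Sox2ot. In the control region, +95.4 kb spans chr3:34744421-34745845, +105.5 kb chr3:34755210-34755580, +106.9 kb chr3:34756129-34757282, +108.0 kb chr3:34757672-34758307, +111.3 kb chr3:34759938-34761623 and +117.2 kb chr3:34766742-34767331.

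Accessibility per peak width was highest at distal peaks in untreated SOX2-FKBP cells. The intervening peak at +18.6 kb had 303.9 normalized counts per kb of peak, followed by +108.0 kb with 289.5, +111.3 kb with 249.9, +106.9 kb with 238.4, +95.4 kb with 197.7 and the intervening peak at +85.1 kb with 171.8. The promoter peak, which is 2622 bp wide, had 124.6 per kb, beside 129.0 at +4.0 kb and 120.1 at +105.5 kb. The order of +111.3 and +106.9 kb is not resolved, since their libraries overlapped. A normalized count is the deposited count scaled for library size (TMM), set to the mean library of the 12 SOX2-FKBP libraries or of the 27 libraries of the 3 lines, so levels are compared within a line.

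Calls at the locus before 24 h were small in number and are given beside the share of all tested peaks. Whether the locus differs from all peaks in this was not tested. In these bulk libraries, fewer cells with an open peak and less opening per cell cannot be told apart. A peak was called lost or gained when edgeR's quasi-likelihood test gave a Benjamini-Hochberg adjusted p under 0.05 over all tested peaks. In SOX2-FKBP cells 51 of the 52 peaks were tested. At 0.5 h, 1 was lost and 0 gained (3.14% of all 160432 tested peaks were lost and 0.158% gained). At 1 h, 2 were lost and 0 gained (5.46% and 0.889% of all), as at 2 h (7.28% and 1.46%). At 6 h, 2 were lost and 1 gained (9.28% and 2.66%). With the replicate number as a block 7 were called at 6 h, while 18346 of all 160432 tested peaks were lost and 8459 gained. At 24 h, 4 were lost and 3 gained (14.1% and 9.17%). Leaving out any 1 SOX2-FKBP NT or 24 h library left 1 to 4 of these 7 calls at 24 h, with 1 without the second NT library and 2 without the second 24 h library. The median log2 change of the 51 peaks was -0.01 at 2 h and -0.09 at 24 h, beside 0.01 and 0.04 over all tested peaks and -0.14 and -0.20 over the 229 tested peaks between 130 kb and 2 Mb from the start.

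In OCT4-FKBP cells 50 peaks were tested, and 2 were lost with 0 gained both at 2 h (5.10% of all 166430 tested peaks lost, 1.92% gained) and at 6 h (7.97% and 4.12%). At 24 h, 10 of 50 were lost and 1 gained, while 12.7% of all tested peaks were lost and 10.8% gained. Leaving out any 1 OCT4-FKBP NT or 24 h library lost some of these 11 calls. Without the second 24 h library, those at -12.8, +4.0, +47.8, +105.5, +111.3 and +117.2 kb missed the threshold. Their log2 changes were then -1.17, -0.79, 0.93, -0.74, -0.79 and -1.09. Of those 10, 6 lay in the control region, where 6 of 8 peaks were lost with a class median of -0.92, and 2 of 25 intervening, 1 of 6 promoter-near and 1 of 9 upstream peaks made up the others. The median over all 50 was -0.10, beside -0.01 over all tested peaks. In NANOG-FKBP cells 0 peaks of the locus were called at 2 h (0.938% of all lost, 0.0162% gained), 0 at 6 h (1.08% and 0.0367%) and 1, a loss, at 24 h (2.25% and 0.288%). Of the 50, 2 and 4 had an unadjusted p under 0.05 at 2 and 6 h, and DESeq2 called 0 at both times.

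**Figure D1:**
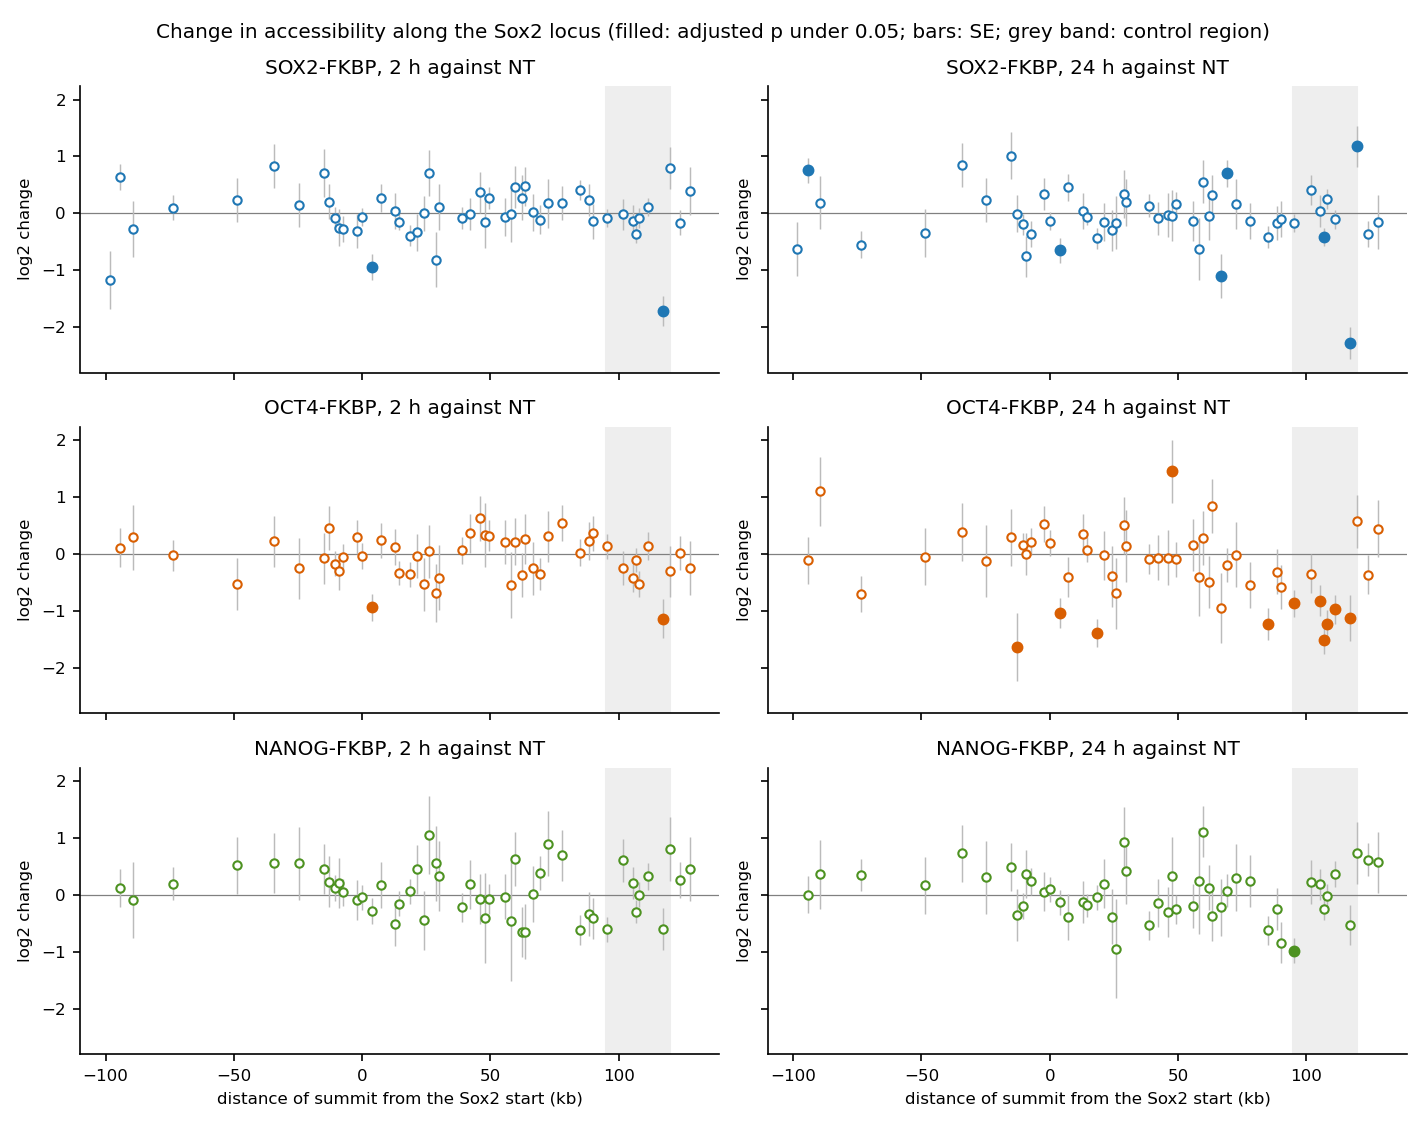
Log2 change from NT (vertical axis) of each tested peak against the distance of its summit from the Sox2 start in kb (horizontal axis), for the 3 lines at 2 and 24 h of dTAG-13, with SE bars, filled points for an adjusted p under 0.05 and a grey band over the control region. At 2 h the called peaks are +4.0 and +117.2 kb in SOX2-FKBP and OCT4-FKBP cells, and at 24 h 6 of the 8 control region peaks are called in OCT4-FKBP cells.

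The promoter peak did not pass the test in any comparison. In SOX2-FKBP cells it had 286.5 and 366.7 normalized counts at NT, 276.3 and 343.1 at 2 h and 252.3 and 338.1 at 24 h. In OCT4-FKBP cells it had 321.9 and 357.9 at NT and 490.0 and 290.4 at 24 h, and in NANOG-FKBP cells 307.4 and 353.9 at NT and 337.1, 349.2 and 374.7 at 24 h. The treated libraries overlapped those at NT in each line. Its log2 change lay between -0.13 (SE 0.17) at 24 h in SOX2-FKBP cells and 0.20 (SE 0.23) at 24 h in OCT4-FKBP cells over the 11 treated conditions. Of the other promoter-near peaks of at least 50 normalized counts at NT, -7.4 and +7.3 kb were not called either, with log2 changes from -0.36 to 0.24 and from -0.40 to 0.45.

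The peak at +4.0 kb, which lies where Sox regulatory region 2 is known, fell when either SOX2 or OCT4 was depleted. SOX2-FKBP libraries had 81.6 and 120.3 normalized counts at NT, 66.0 and 78.1 at 0.5 h, 44.1 and 67.4 at 1 h, 55.6 and 47.2 at 2 h, 57.9 and 63.8 at 6 h and 59.2 and 66.1 at 24 h. All treated libraries were thus below both NT libraries, and the lowest mean was reached at 2 h, at 50.9% of NT. The log2 change was -0.47 (SE 0.22) at 0.5 h, which did not pass the test, then -0.86 (SE 0.23, edgeR adjusted p = 0.0162) at 1 h, -0.94 (SE 0.22, 0.00331) at 2 h, -0.69 (SE 0.22, 0.0279) at 6 h and -0.65 (SE 0.22, 0.0267) at 24 h. The second NT library was the higher, and without it the 2 h change was -0.67 with an edgeR adjusted p of 0.156, and no later or earlier time passed the test. With the first NT library left out instead, the calls at these 4 times held. The call at 1 h was also lost without the first 1 h library (-0.54, adjusted p = 0.442) and that at 2 h without the second 2 h library (-0.82, 0.0756). Those at 6 and 24 h were lost without any 1 treated library of their time, and DESeq2 called the peak in SOX2-FKBP cells only at 2 h.

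In OCT4-FKBP cells the same peak at +4.0 kb had 97.4 and 122.3 normalized counts at NT, 68.0 and 48.5 at 2 h, 49.6 and 36.9 at 6 h and 63.8 and 43.3 at 24 h. No treated library reached the NT level. The log2 changes were -0.94 (SE 0.24, edgeR adjusted p = 0.00804) at 2 h, -1.35 (SE 0.24, 5.15e-05) at 6 h and -1.04 (SE 0.26, 0.00255) at 24 h, of which the change at 6 h passed the test under every alternative tried. Leaving out the second NT library (-0.75, adjusted p = 0.17) or the second 2 h library (-0.67, 0.247) ended the call at 2 h, and leaving out the second 24 h library that at 24 h (-0.79, 0.0688). NANOG-FKBP libraries had 136.3 and 153.2 normalized counts at NT, 122.1, 93.2 and 126.5 at 2 h and 119.1, 129.3 and 148.7 at 24 h. Its change in NANOG-FKBP cells was -0.29 (SE 0.23) at 2 h, 0.03 (SE 0.22) at 6 h and -0.13 (SE 0.22) at 24 h, with no call. The difference between the OCT4-FKBP and NANOG-FKBP changes at +4.0 kb was -1.38 (SE 0.33, edgeR adjusted p = 0.00563) at 6 h. It missed the threshold without the second OCT4-FKBP NT library (-1.16), the second OCT4-FKBP 6 h library (-1.14) or the first NANOG-FKBP NT library (-1.26), with adjusted p of 0.0648, 0.0852 and 0.0502. At +4.0 kb the SOX2-FKBP and OCT4-FKBP changes differed by 0.05 (SE 0.35) at 2 h, 0.70 (SE 0.34) at 6 h and 0.41 (SE 0.36) at 24 h, none of which passed the test.

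Among the peaks of the control region class, +117.2 kb fell within 0.5 h of SOX2 depletion and had the largest log2 change from NT of the named peaks. SOX2-FKBP libraries had 70.3 and 59.5 normalized counts at NT, 28.5 and 25.0 at 0.5 h, 22.1 and 18.0 at 1 h, 20.8 and 19.1 at 2 h, 11.9 and 13.4 at 6 h and 15.5 and 11.3 at 24 h. Every treated library was far below the lower NT library. The log2 change was -1.27 (SE 0.26, edgeR adjusted p = 0.00194) at 0.5 h, -1.68 (SE 0.28, 5.04e-05) at 1 h, -1.72 (SE 0.26, 6.65e-06) at 2 h, -2.36 (SE 0.28, 4.54e-08) at 6 h and -2.28 (SE 0.29, 7.56e-08) at 24 h. The calls from 1 h on held under every alternative tried, and that at 0.5 h did not hold with DESeq2 (adjusted p = 0.107), without the first NT library (-1.13, 0.0883) or without the first 0.5 h library (-1.39, 0.0955).

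After depletion of OCT4, +117.2 kb was also called at each time, and each call rested on the second NT library. OCT4-FKBP libraries had 17.9 and 36.2 normalized counts at NT, 12.9 and 12.4 at 2 h, 11.6 and 13.5 at 6 h and 13.1 and 12.4 at 24 h, from raw counts of 8 to 68. All treated libraries were below both NT libraries, whose own values differed by more than the treated ones did. The log2 change was -1.13 (SE 0.35, edgeR adjusted p = 0.0348) at 2 h, -1.14 (SE 0.33, 0.0159) at 6 h and -1.12 (SE 0.40, 0.0372) at 24 h. Without the second NT library these became -0.49, -0.49 and -0.52, with no call. None of these 3 calls held with DESeq2 (adjusted p of 0.12, 0.0666 and 0.124) or without any 1 treated library of its time. In NANOG-FKBP cells +117.2 kb had 36.1 and 26.9 normalized counts at NT, 17.3, 12.4 and 30.2 at 2 h and 20.9, 12.9 and 27.03 at 24 h, and its changes of -0.60 (SE 0.37), -0.69 (SE 0.36) and -0.52 (SE 0.35) at 2, 6 and 24 h were not called. In the second library at 2 h, 2 reads equal 12.42 normalized counts, and in that at 24 h 1 read equals 4.31. The values of 12.4 and 12.9 thus rest on few reads. The SOX2-FKBP change exceeded that of NANOG-FKBP cells at 24 h, by -1.71 (SE 0.50, edgeR adjusted p = 0.0246), a call lost with DESeq2 (0.0771) and without the first SOX2-FKBP NT library (-1.62), the second SOX2-FKBP 24 h library (-1.49), the second NANOG-FKBP NT library (-1.57) or the third NANOG-FKBP 24 h library (-1.51). Its difference from OCT4-FKBP cells, -1.11 (SE 0.56) at 24 h, did not pass the test, nor did that of -1.16 at 6 h, which was called without the second OCT4-FKBP NT library (-1.88, edgeR adjusted p = 0.0463).

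**Figure D2:**
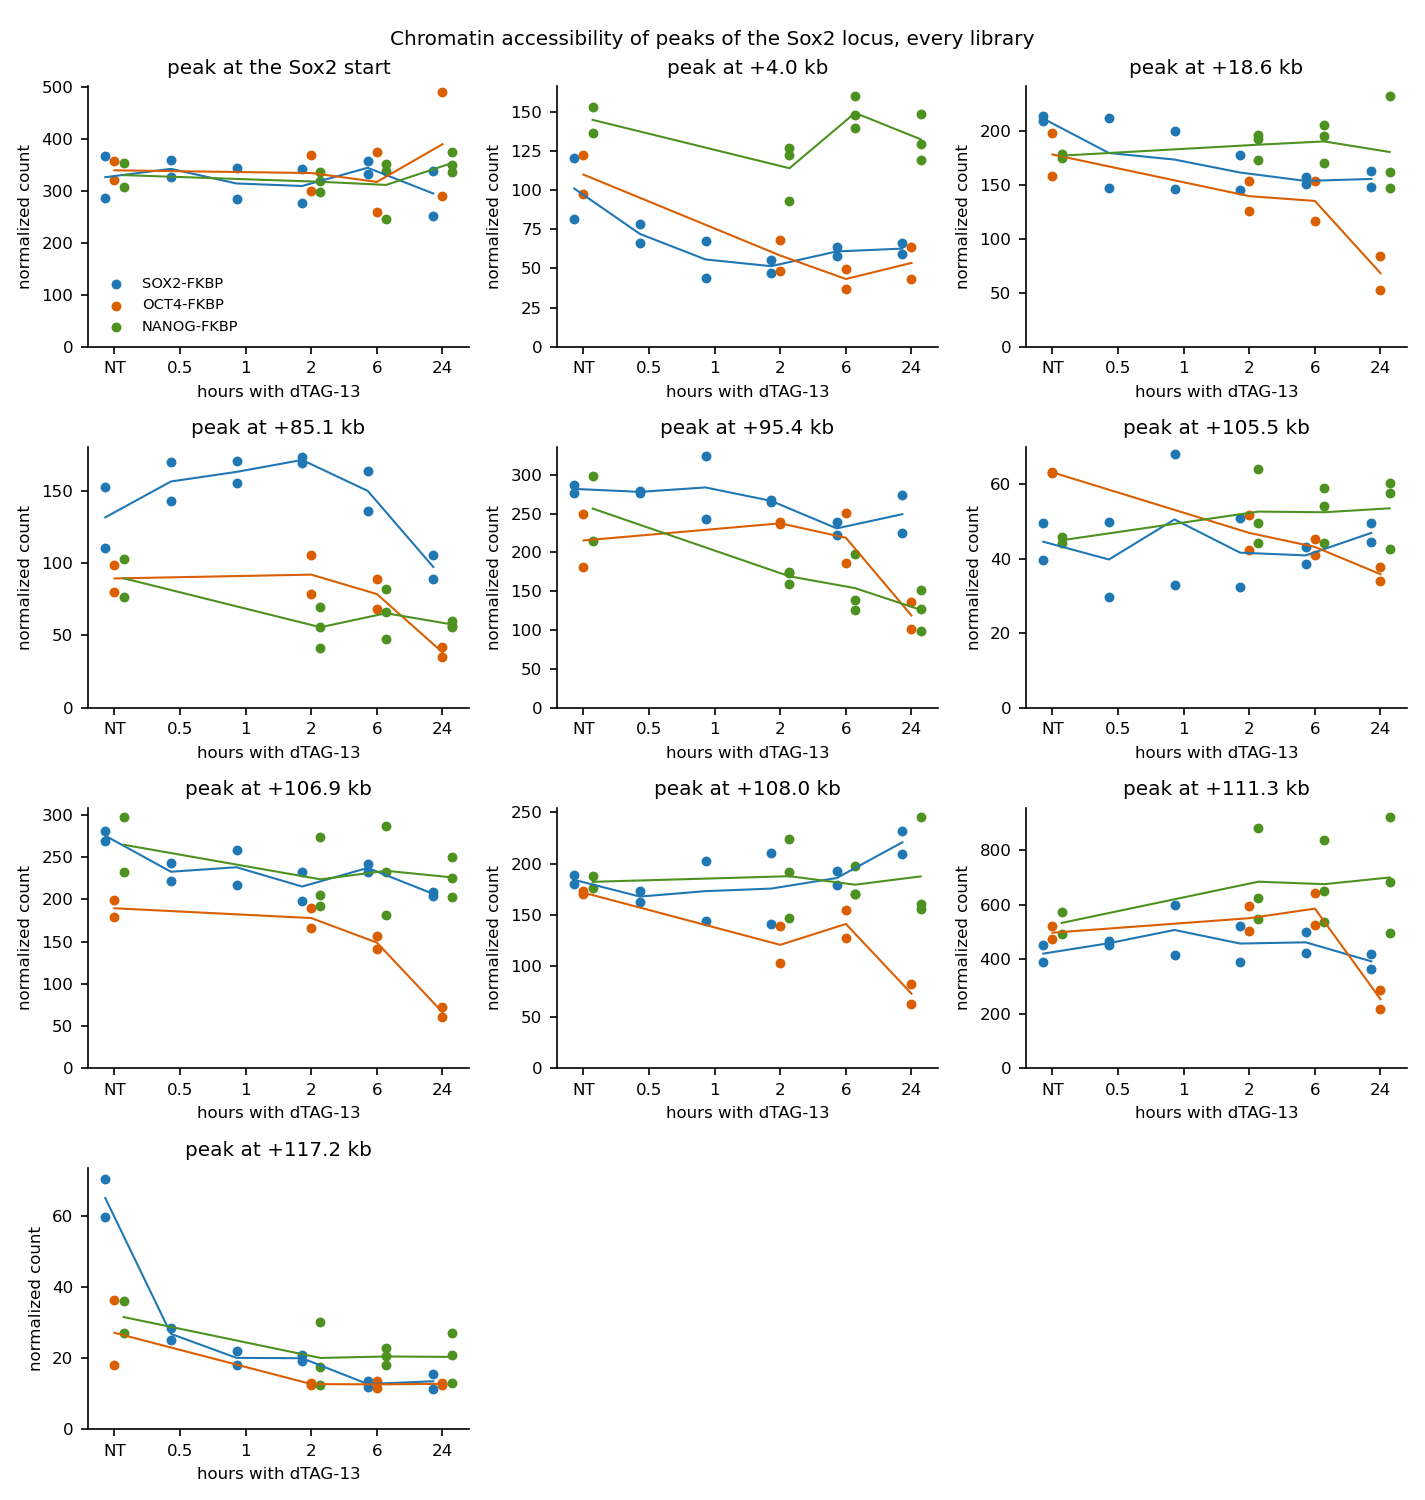
Normalized count (vertical axis, from 0) of 10 peaks of the Sox2 locus in each of the 31 libraries (points), by hours with dTAG-13 (horizontal axis, not to scale) and line (colour), with lines through the group means. The promoter peak overlaps NT throughout, +117.2 kb drops from 70.3 and 59.5 to 28.5 and 25.0 within 0.5 h in SOX2-FKBP cells, and +106.9, +108.0 and +111.3 kb drop in OCT4-FKBP cells at 24 h.

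The peaks at +106.9, +108.0 and +111.3 kb had lower values at 24 h of OCT4 depletion than at any earlier time. At +106.9 kb OCT4-FKBP libraries had 179.3 and 199.4 normalized counts at NT, 190.1 and 165.4 at 2 h, 156.7 and 140.7 at 6 h and 72.5 and 60.2 at 24 h. The 24 h libraries stood at 35.0% of NT on average and did not overlap any other library of the line. The log2 change at +106.9 kb was -0.10 (SE 0.21) at 2 h and -0.35 (SE 0.21) at 6 h, neither of them called, and -1.51 (SE 0.24, edgeR adjusted p = 6.6e-06) at 24 h. From 2 to 24 h it fell by 1.41 on the log2 scale (SE 0.24, adjusted p = 6.89e-05).

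At +108.0 kb the OCT4-FKBP libraries had 169.9 and 173.4 normalized counts at NT, 138.7 and 102.6 at 2 h, 154.3 and 127.8 at 6 h and 82.6 and 63.3 at 24 h. All treated libraries were below NT, and the change of -1.23 (SE 0.25, edgeR adjusted p = 0.000291) at 24 h was called. When replicate number entered the fit as a block, the 2 h change was also called (-0.54, edgeR adjusted p = 0.0221, against 0.218 without it), and so was the further fall from 2 to 24 h (-0.71, 0.00755 against 0.0558). That fall was called as well without the second 2 h library (-0.97, 0.0422). At +111.3 kb, the widest peak of the region, the values were 473.9 and 522.2 at NT, 597.0 and 505.6 at 2 h, 645.3 and 527.7 at 6 h and 288.5 and 219.4 at 24 h. Accessibility there was above the lower NT library until 6 h and below both NT libraries at 24 h, when the log2 change was -0.97 (SE 0.26, edgeR adjusted p = 0.00435). The call at +111.3 kb did not hold without the second 24 h library (-0.79, adjusted p = 0.0727), whereas those at +106.9 and +108.0 kb held under every alternative tried.

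The control region peaks at +95.4 and +105.5 kb were also called at 24 h of OCT4 depletion. At +95.4 kb, OCT4-FKBP libraries had 180.8 and 249.9 normalized counts at NT and 101.5 and 135.9 at 24 h, a log2 change of -0.87 (SE 0.24, edgeR adjusted p = 0.0064) that missed the threshold without the second NT library (-0.63, 0.139) or the first 24 h library (-0.66, 0.146). It was also the only member called in NANOG-FKBP cells, where it had 298.0 and 214.9 normalized counts at NT, 174.9, 173.9 and 158.6 at 2 h, 125.4, 197.7 and 138.6 at 6 h and 127.6, 99.2 and 151.1 at 24 h. All treated NANOG-FKBP libraries lay below both NT libraries, with log2 changes of -0.61 (SE 0.22), -0.79 (SE 0.22) and -0.98 (SE 0.22, edgeR adjusted p = 0.00558), of which the last was called. Without the first NT library that call was lost (-0.73, adjusted p = 0.276). The change at 6 h was called without the second NT library (-1.02, adjusted p = 0.0434) or the second 6 h library (-0.99, 0.0211). In SOX2-FKBP cells the same peak at +95.4 kb had changes from -0.29 to 0.02, with no call. The difference between the SOX2-FKBP and NANOG-FKBP changes there was 0.85 (SE 0.31) at 24 h and did not pass the test.

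At +105.5 kb, a peak of 371 bp, OCT4-FKBP libraries had 63.1 and 63.3 normalized counts at NT and 37.7 and 34.0 at 24 h (log2 change -0.82, SE 0.28, edgeR adjusted p = 0.0292), a call that did not hold with DESeq2 (adjusted p = 0.0965) or without any 1 of the 4 libraries. The peaks at +101.8 and +120 kb had fewer than 50 normalized counts at NT, and of these +120 kb was called once, as gained at 24 h in SOX2-FKBP cells (1.18, SE 0.35, adjusted p = 0.0127). Its libraries rose from 16.5 and 9.91 to 26.2 and 36.8 normalized counts, and the call did not hold with DESeq2 (adjusted p = 0.11), without the second NT library (0.93, 0.118) or without the second 24 h library (0.90, 0.161).

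Of +106.9, +108.0 and +111.3 kb, 1 was called after SOX2 depletion. In SOX2-FKBP cells +111.3 kb had 453.2 and 389.3 normalized counts at NT, 524.4 and 392.0 at 2 h and 419.3 and 366.4 at 24 h, and its log2 changes ran from -0.11 (SE 0.16) at 24 h to 0.27 (SE 0.16) at 1 h. At +108.0 kb the values were 188.4 and 179.8 at NT and 232.0 and 209.6 at 24 h, when both libraries were above NT and the change of 0.26 (SE 0.18) was not called. Only +106.9 kb passed the test, with 281.3 and 269.0 at NT, 232.0 and 198.1 at 2 h and 208.7 and 204.0 at 24 h, a log2 change of -0.42 (SE 0.15, edgeR adjusted p = 0.0458) at 24 h that did not hold with DESeq2 (0.101), without a count filter (0.0662), in the fit of 27 libraries (0.247) or without any 1 of the 4 libraries. Summed over all 8 control region peaks, the mean of the normalized counts at 24 h was 91.4% of NT in SOX2-FKBP cells, 49.9% in OCT4-FKBP cells and 100.7% in NANOG-FKBP cells. The sums in SOX2-FKBP libraries were 1366.7 and 1275.6 at NT and 1276.2 and 1139.8 at 24 h, so they overlapped. Of their NT mean of 1321, +111.3 kb made up 421.3 and +117.2 kb 64.9. The sums in OCT4-FKBP libraries were 1118 and 1299 at NT and 636.4 and 570.0 at 24 h, and those in NANOG-FKBP libraries 1449 and 1232 at NT and 1113, 1634 and 1305 at 24 h. The highest of these NANOG-FKBP sums came from the second 24 h library, which had 2767190 counts, 16.99% of them mitochondrial, and without it the mean was 90.2% of NT. The second NANOG-FKBP libraries at 2 and 6 h were alike, with 1817191 and 3272168 counts, 17.56 and 13.18% of them mitochondrial. Their sums were 1658 and 1623, while those of the other treated NANOG-FKBP libraries ran from 1113 to 1305. The NT libraries had 3.65 and 3.83% mitochondrial counts. The part of depth and mitochondrial share in these sums was not tested.

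**Figure D3:**
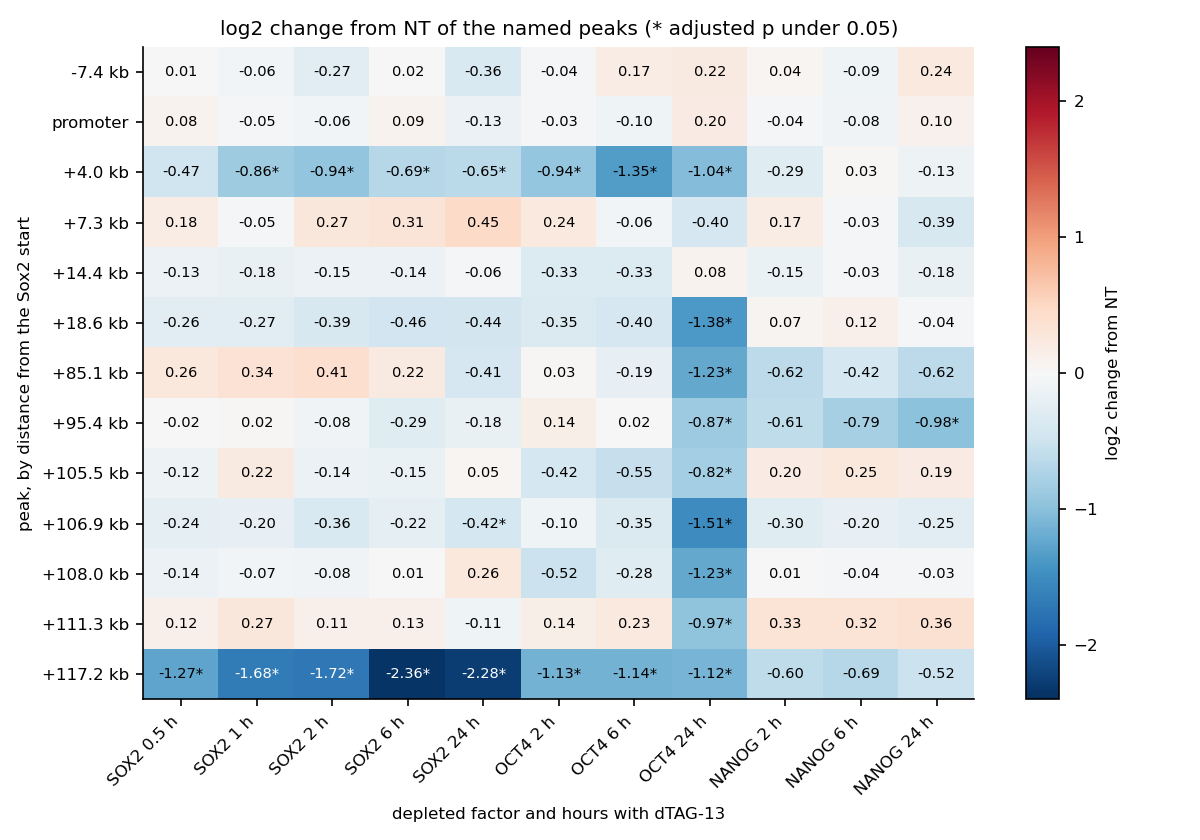
Log2 change from NT (colour and printed value) of the 13 peaks named by rule (vertical axis, by distance from the Sox2 start) in each of the 11 treated conditions (horizontal axis), with a star for an edgeR adjusted p under 0.05. The rows of +106.9, +108.0 and +111.3 kb are called in the OCT4 24 h column (-1.51, -1.23 and -0.97), and +4.0 and +117.2 kb are called from the earliest OCT4 column on.

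The lines were compared by testing the difference between their changes from NT. Since each factor was depleted in its own line, line and depleted factor cannot be told apart. At 2 h, 0 of 50 peaks of the locus differed between SOX2-FKBP and OCT4-FKBP cells (1.57% of all tested peaks did), 0 between SOX2-FKBP and NANOG-FKBP cells (1.75%) and 0 between OCT4-FKBP and NANOG-FKBP cells (2.52%). Unadjusted p-values under 0.05 were reached by 0, 2 and 1 of the 50, and DESeq2 called 0 in each. At 6 h the counts were 0 (2.73% of all), 0 (3.27%) and 1 (4.95%), the last at +4.0 kb. For the 2 zero counts at 6 h, 1 and 5 peaks had an unadjusted p under 0.05 and DESeq2 called 0. At 24 h, 2 peaks differed between SOX2-FKBP and OCT4-FKBP cells (2.77% of all), 1 between SOX2-FKBP and NANOG-FKBP cells (6.78%) and 4 between OCT4-FKBP and NANOG-FKBP cells (8.89%).

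The 2 peaks that differed between SOX2-FKBP and OCT4-FKBP cells at 24 h were +108.0 kb, by 1.53 (SE 0.34, edgeR adjusted p = 0.00635), and +106.9 kb, by 1.13 (SE 0.32, 0.041), both with the lower value in OCT4-FKBP cells. The difference at +108.0 kb held under all alternatives except leaving out the second OCT4-FKBP 24 h library (1.35, adjusted p = 0.0584), while that at +106.9 kb did not hold with DESeq2 (0.0531) and under 10 other settings. At +111.3 kb the difference was 0.91 (SE 0.36, edgeR adjusted p = 0.201), and with the replicate block it was 0.93 (0.0062). With that block 4 peaks of the locus, in place of 2, differed between SOX2-FKBP and OCT4-FKBP cells at 24 h. Over all 166430 tested peaks, 6374 and 5341 were then called below and above 0, against 2774 and 1834 without the block. OCT4-FKBP and NANOG-FKBP changes differed at +106.9 kb (-1.26, SE 0.31, edgeR adjusted p = 0.00617), +108.0 kb (-1.20, SE 0.34, 0.0168), +111.3 kb (-1.34, SE 0.35, 0.00935) and +18.6 kb (-1.34, SE 0.33, 0.00558). Without the second OCT4-FKBP 24 h library, 3 of those 4 missed the threshold, with adjusted p from 0.0578 to 0.0857, and only +106.9 kb remained. The call at +108.0 kb was also lost without the first NANOG-FKBP NT library or the second NANOG-FKBP 24 h library, each with an adjusted p of 0.0533. These comparisons share their OCT4-FKBP libraries, and the 24 h libraries were the shallowest of that line, whose part in the result was not tested. The differences from NANOG-FKBP cells also use the second NANOG-FKBP 24 h library described above.

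**Figure D4:**
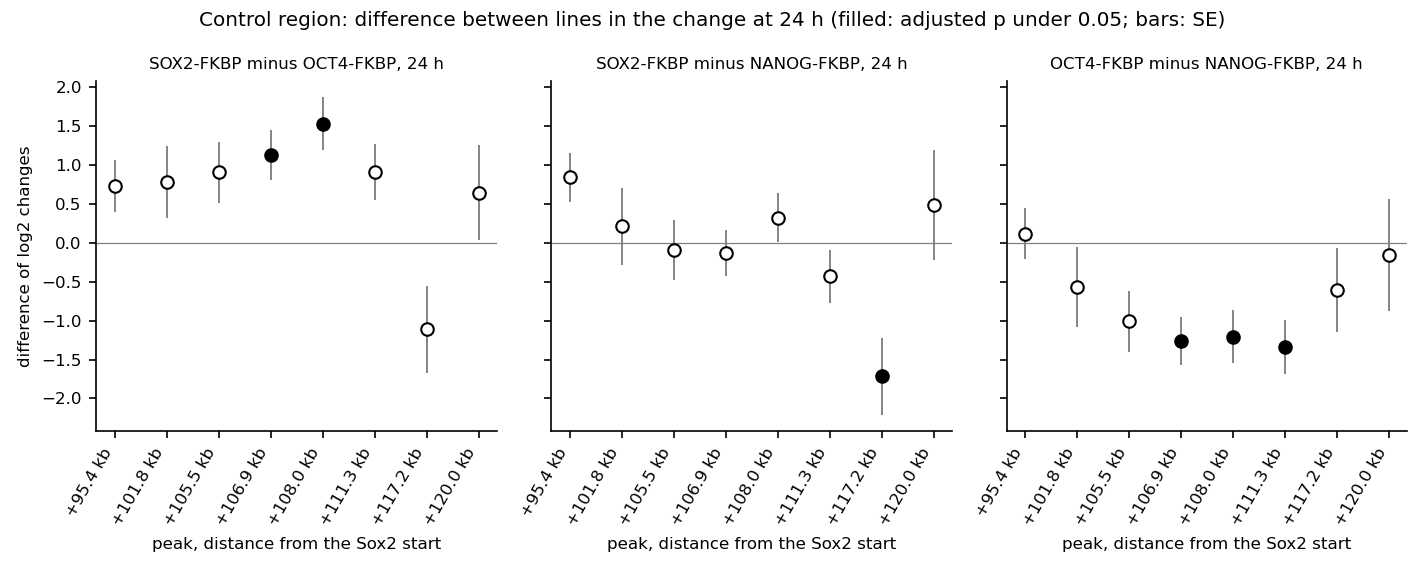
Difference between 2 lines in the log2 change from NT at 24 h (vertical axis) for the 8 control region peaks (horizontal axis, by distance from the Sox2 start), with SE bars and filled points for an edgeR adjusted p under 0.05. The peaks at +106.9 and +108.0 kb are above 0 in SOX2-FKBP minus OCT4-FKBP (1.13 and 1.53), and +117.2 kb is at -1.71 in SOX2-FKBP minus NANOG-FKBP.

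Outside the promoter-near and control region classes, the 3 peaks with the highest mean at NT were +14.4, +18.6 and +85.1 kb. The peak at +18.6 kb in the Sox2ot intron had 158.2 and 198.4 normalized counts at NT in OCT4-FKBP cells, 125.8 and 153.6 at 2 h, 116.3 and 154.2 at 6 h and 84.1 and 52.5 at 24 h. Its log2 change at 24 h was -1.38 (SE 0.25, edgeR adjusted p = 4.42e-05), and it fell by 1.03 on the log2 scale from 2 to 24 h (SE 0.25, 0.00389), a call lost without the second 2 h library (-0.92, 0.0528) or the second 24 h library (-0.74, 0.0887). In SOX2-FKBP cells +18.6 kb had 209.3 and 213.8 at NT and 163.0 and 148.3 at 24 h, below NT in both libraries, with a change of -0.44 that was not called (adjusted p = 0.0708) but was with the replicate block (0.0144). At +85.1 kb the OCT4-FKBP libraries had 80.3 and 98.4 normalized counts at NT, 105.6 and 78.4 at 2 h and 34.8 and 41.7 at 24 h, a log2 change of -1.23 (SE 0.29, edgeR adjusted p = 0.0012). SOX2-FKBP libraries at +85.1 kb went from 110.3 and 152.9 at NT to 173.5 and 169.1 at 2 h and 105.8 and 88.8 at 24 h, and the change between 2 and 24 h was -0.82 (SE 0.18, adjusted p = 0.00285), or -0.69 (0.0622) without the second 24 h library. The peak at +14.4 kb was not called, with log2 changes from -0.33 to 0.08.

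Between 2 and 24 h, 2 of 51 members fell and 1 rose in SOX2-FKBP cells, where 5.99% of all tested peaks fell and 5.02% rose. In OCT4-FKBP cells 6 of 50 fell and 0 rose (8.25% and 6.08% of all). With the replicate block 10 were called, while 20199 of all 166430 tested peaks fell and 18280 rose. In NANOG-FKBP cells 0 of 50 were called in either direction (0.0811% and 0.0216% of all), 1 member had an unadjusted p under 0.05 and DESeq2 called 0. The 6 OCT4-FKBP peaks were -12.8, +18.6, +85.1, +95.4, +106.9 and +111.3 kb. Without the first 24 h library 3 were called, since -12.8 (-2.82, edgeR adjusted p = 0.0541), +85.1 (-1.11, 0.0704) and +95.4 kb (-0.79, 0.121) missed the threshold. The call at -12.8 kb was also lost without the second 2 h library (-1.90, 0.0993) or the second 24 h library (-1.63, 0.118). In SOX2-FKBP cells 0 of the 3 calls were left without the second 24 h library and 1 without the second 2 h library.

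A further 6 peaks were called and are named after their values were seen. The peak at -94.3 kb was gained in SOX2-FKBP cells at 6 h (log2 change 0.90, SE 0.22, edgeR adjusted p = 0.00304) and 24 h (0.76, SE 0.22, 0.0108), with 70.3 and 63.7 normalized counts at NT, 142.4 and 111.1 at 6 h and 128.1 and 100.1 at 24 h. At 24 h in SOX2-FKBP cells +69.2 kb was gained (0.71, SE 0.24, adjusted p = 0.0254) and +66.7 kb lost (-1.11, SE 0.39, 0.0354), the latter from raw counts of 20 and 20 at NT to 13 and 8. In OCT4-FKBP cells at 24 h -12.8 kb was lost (-1.63, SE 0.60, adjusted p = 0.0434) and +47.8 kb gained (1.46, SE 0.55, 0.0497), the former with raw counts of 5 and 2 at 24 h. The sixth is +120 kb, described above. None of these calls held under all alternatives.

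At any time against NT, 4 of 51 peaks of the locus were lost in SOX2-FKBP cells (15.2% of all tested peaks were), 10 of 50 in OCT4-FKBP cells (14.2%) and 1 of 50 in NANOG-FKBP cells (2.46%). Of the 51 tested peaks 36 were called in no line and 15 in at least 1, while 38.3% of all peaks tested in either fit were called in at least 1. SOX2-FKBP and OCT4-FKBP cells shared the losses at +4.0, +106.9 and +117.2 kb, which is 75.0% of the peaks lost in the first and 30.0% of those lost in the second, beside 56.3% and 58.1% over all tested peaks. The call at +106.9 kb in SOX2-FKBP cells and those at +117.2 kb in OCT4-FKBP cells are among the ones lost with DESeq2 or without 1 library, as given above. A SOX match stood in the window of 3 of the 4 peaks lost in SOX2-FKBP cells, 5 of the 10 lost in OCT4-FKBP cells and 12 of the 36 called nowhere. Among all tested peaks 34.8% held one, and the share among all lost peaks was not taken. Over the whole width, +85.1, +106.9 and +111.3 kb also held SOX matches, as did peaks called nowhere such as the promoter peak. A link between match and loss was not tested.

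Over the 11 treated conditions, the profile of log2 changes at +111.3 kb was most like those at +106.9 kb (Pearson r = 0.94) and +18.6 kb (0.94) among the members, followed by -73.6 kb (0.84), -12.8 kb (0.78) and +108.0 kb (0.77), and it was unlike those at +4.0 kb (0.41), +117.2 kb (0.19) and the promoter peak (-0.54). Of 46543 peaks outside the locus with at least 50 normalized counts, the 5 most like +111.3 kb lay nearest to B3galt4 (r = 0.990), Letmd1 (0.988), Gm49355 (0.985), Hsd17b14 (0.983) and Spats1 (0.981), and their log2 changes at 24 h of OCT4 depletion ran from -0.88 to -2.01. Their summits lay 0.1, 5.2, 321.3, 4.2 and 0.6 kb from the starts of these genes, in that order. Of 10602 promoter peaks, the 5 most like the Sox2 promoter peak belonged to D1Pas1 (r = 0.861), Syt4 (0.851), Sytl2 (0.823), Gm45208 (0.814) and Cxxc4 (0.812). The conditions of a line share their NT libraries, so r is a description and carries no test.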

How the data were processed

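ATACseq was measured in 45 samples of the series, of which the 31 degron time series libraries were used and 14 were not analysed here. The authors aligned the reads to mm10 (the submitters' processing notes name BWA 0.7.17-r1188, Picard 2.12.0 and SAMtools 1.10), called peaks on merged libraries and deposited raw read counts per peak. Because peaks were called on merged libraries, a peak is listed in every library whether or not it was open there. From the deposited peak list, other values such as scores and fold enrichment were not used, only the position and the summit offset.

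Counts were fitted in R 4.3.3 with edgeR 4.0.16 (TMM, quasi-likelihood test, Benjamini-Hochberg adjustment over all tested peaks, threshold 0.05). The SOX2-FKBP changes came from 1 fit of 12 libraries (160432 peaks, each above 10 counts in over 2 of them), and the OCT4-FKBP and NANOG-FKBP changes and all differences between lines from 1 fit of 27 libraries (166430 peaks, each above 10 counts in over 6). DESeq2 1.42.0 was an alternative. Total counts per library of 1817191 to 17575631 set the precision. Scripts were tested on simulated data.

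Named with values were promoter-near and control region peaks whose mean normalized count at NT reached 50 in any line, members called at 2 h and the 3 others with the highest mean at NT. Sequences were shown for up to 6 promoter-near or control region peaks with the largest loss at 2 h, and 5 are printed. The members and lists were chosen with earlier results of these data known. Over 46569 peaks, deviations of same-numbered libraries from their group means correlated at 0.128 to 0.487 in SOX2-FKBP cells (15 pairs of groups) and 0.345 to 0.600 in OCT4-FKBP cells (6 pairs), so the numbers were taken to pair the samples there. Each value rests on 2 numbers. The main fits held line and time only and so left this pairing out, and the replicate block was an alternative. In NANOG-FKBP cells treated groups correlated with each other at 0.406 to 0.495 (3 numbers) but with NT at -0.011 to 0.112, so not every pair passed 0.1 and the numbers were not taken to pair the samples. Alternatives were DESeq2, its size factors, total counts, no or a stricter count filter, other libraries in the fit, the replicate block, summits within 100 kb, a 200 bp motif window and leaving out each library. Leaving out libraries from the control region sums was chosen after seeing the data.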

Additional observations from a re-analysis of the deposited data

Results flagged for a closer look

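The changes of 8 peak and time combinations differed between lines by the test of the difference itself (edgeR adjusted p under 0.05). At +4.0 kb, OCT4-FKBP minus NANOG-FKBP at 6 h was -1.38 on the log2 scale. At 24 h the same difference was -1.34 at +18.6 kb, -1.26 at +106.9 kb, -1.20 at +108.0 kb and -1.34 at +111.3 kb. SOX2-FKBP minus OCT4-FKBP at 24 h was 1.13 at +106.9 kb and 1.53 at +108.0 kb. SOX2-FKBP minus NANOG-FKBP at 24 h was -1.71 at +117.2 kb. Each factor was depleted in its own line, so line and depleted factor cannot be told apart in any of these differences. The OCT4-FKBP line also has another parental line than the others.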

How the results depend on the processing

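Of 48 called changes of members, 311 values under alternatives other than leaving out a library gave 271 kept calls, 40 lost and 0 reversed, and 231 values with a library left out gave 141 kept, 90 lost and 0 reversed. The calls at +117.2 kb in SOX2-FKBP cells from 1 h on and at +4.0 kb in OCT4-FKBP cells at 6 h held under each. So did those at +18.6, +106.9 and +108.0 kb in OCT4-FKBP cells at 24 h. The call at +85.1 kb in OCT4-FKBP cells at 24 h held under each alternative in which the peak was tested. It was not tested with at least 10 counts in every library, since a NANOG-FKBP 2 h library had 9. Apart from peaks that a filter or a window left out, the cause of the moves below was not tested.

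With DESeq2 the members called in SOX2-FKBP cells numbered 0, 1 and 1 at 0.5, 1 and 24 h, with 1 between 2 and 24 h. DESeq2 also gave 1, 1 and 7 at 2, 6 and 24 h in OCT4-FKBP cells, and at 24 h 1 for SOX2-FKBP minus OCT4-FKBP and 0 for SOX2-FKBP minus NANOG-FKBP. With its size factors, or with no count filter, the former was 1, and with no filter NANOG-FKBP cells had 2 at 24 h. Scaling by total counts left 1 at 2 h in OCT4-FKBP cells. With at least 10 counts in every library, OCT4-FKBP cells had 7 at 24 h, SOX2-FKBP minus NANOG-FKBP 0 and OCT4-FKBP minus NANOG-FKBP 7. That filter left -12.8, +47.8, +85.1 and +117.2 kb out of the fit of 27 libraries, since each fell below 10 counts in some library. Their calls in that fit were therefore not retested under it. With other libraries in the fit, SOX2-FKBP cells had 3 at 24 h and 1 between 2 and 24 h, and OCT4-FKBP cells 0 at 2 h and 1 at 6 h. Within 100 kb, which leaves 43 peaks and only part of the control region, counts were 0, 1, 1 and 4 at 0.5, 1, 2 and 24 h in SOX2-FKBP cells, 1, 1 and 6 at 2, 6 and 24 h in OCT4-FKBP cells, and 0, 0 and 1 for the 3 line differences at 24 h. The ESRRB element was in 1 window of 200 bp.

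With the replicate block, 7 were called at 6 h in SOX2-FKBP cells, 10 between 2 and 24 h in OCT4-FKBP cells, 1 and 1 at 2 and 6 h in NANOG-FKBP cells, where NT and treated libraries of 1 number did not deviate together, and 4 for SOX2-FKBP minus OCT4-FKBP at 24 h. SOX2-FKBP minus NANOG-FKBP then gave 1, 1 and 3 at 2, 6 and 24 h and OCT4-FKBP minus NANOG-FKBP 1, 2 and 7. In each of these comparisons the block also raised the number of calls over all tested peaks. At +95.4 kb the block gave NANOG-FKBP changes of -0.64 at 2 h (edgeR adjusted p = 0.0479) and -0.85 at 6 h (0.0018), and a SOX2-FKBP minus NANOG-FKBP difference of 0.86 at 24 h (0.0143), all called only with it or, at 6 h, also without 1 of 2 libraries.

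With each library left out in turn, where a lone sample is assumed to vary like the other groups, counts ran from 0 to 1, 1 to 3, 1 to 2, 2 to 3 and 1 to 4 at 0.5, 1, 2, 6 and 24 h in SOX2-FKBP cells and 0 to 3 between 2 and 24 h. In OCT4-FKBP cells they ran from 0 to 2, 1 to 2 and 6 to 8 at 2, 6 and 24 h and 3 to 8 between 2 and 24 h. In NANOG-FKBP cells they were 0 at 2 h, 0 to 1 at 6 h and 0 to 1 at 24 h. SOX2-FKBP minus OCT4-FKBP gave 0, 0 to 1 and 0 to 1 at 2, 6 and 24 h, SOX2-FKBP minus NANOG-FKBP 0, 0 and 0 to 1, and OCT4-FKBP minus NANOG-FKBP 0, 0 to 1 and 1 to 5. The control region sum at 24 h, in an alternative chosen after seeing the data, ran from 86.3 to 96.6% of NT in SOX2-FKBP cells, 46.4 to 53.9% in OCT4-FKBP cells and 90.2 to 109.6% in NANOG-FKBP cells. At 24 h the OCT4-FKBP libraries held 5 and 2 reads at -12.8 kb and 9 and 8 at +117.2 kb, and whether depth moved a call was not tested.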
